A study of Mus musculus with 4 samples.

Results

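Expression of the tumour suppressor gene Trp53, of its negative regulator Mdm2 and of 8 p53 target genes, most of them linked to apoptosis, was examined in mouse colonic crypt epithelium. The members were fixed by name, as Trp53, Mdm2, Ccng1, Bax, Bbc3, Pmaip1, Aen, Plk2, Fas and Sesn2, and every probe set whose only gene symbol in the platform annotation was one of these names was taken. This gave 17 of 45101 probe sets, for 8 of the 10 genes. Trp53 and Bax were matched by 0 probe sets under this rule, and their expression is not analysed here. Among the 17 probe sets, 9 lay at or above a log2 value of 5 (the floor, below which values carry little information) on all 4 arrays, 5 on some arrays and 3 on none.

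The p53 protein is a transcription factor that stays scarce because the ubiquitin ligase Mdm2, itself a p53 target, marks it for degradation. DNA damage, oncogene activity and other stress stabilise p53, which then switches on genes for cell cycle arrest, repair, metabolism and cell death. In the intestine p53 and its target Bbc3 (Puma) are best known for the apoptosis of crypt cells after irradiation. The activity of p53 is set largely at the level of the protein, which arrays do not measure, so its target genes are the usual transcript readout.

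The arrays were 4, all from the colon of male mice, with 1 array in each of 4 groups. GFPhigh and GFPlow came from H2B-GFP mice, in which a tetracycline-responsive element drives histone H2B fused to GFP, after 7 days of doxycycline labelling and 2 days of withdrawal. GFPhigh cells had kept the label, which is taken to mark cells that do not proliferate. GFPlow cells had diluted it by dividing, and both were epithelial cells sorted from isolated crypts. Dox minus and Dox plus were isolated crypts of mice with a doxycycline-inducible β-catenin gene, untreated or given doxycycline at 2.0 mg/ml in drinking water for 5 days, and the labels name no sort for them. Dox plus differs from Dox minus in doxycycline as well as in β-catenin induction, which cannot be told apart. The labels give no strain, age, number of mice per array or driver of the tetracycline system. Since every group is a single array, differences below have no replicate check and no test, and precision is limited by this number.

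All 8 epithelial markers on the list used (among them Epcam, Cdh1 and Vil1) lay at or above the floor on all 4 arrays. All 5 smooth muscle and 5 endothelial markers, and the 2 of 4 red blood cell markers with a probe set, lay under it on every array. The labels of the sort also matched the markers of division: 6 of 7 proliferation markers were at least 2-fold higher in GFPlow, with a median difference of 2.31 (log2). On GFPhigh 6 of the 7 still lay at or above the floor (Mki67 at 9.68), so this fraction was lower in these transcripts but not free of them. Surface colonocyte markers had a median of -0.90 in the GFP pair, goblet cell markers 0.35 and enteroendocrine markers -1.22. In the Dox pair these 4 lists had medians of -0.27, -0.22, -0.43 and -2.63.

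Some of the genes carry in their promoter the 10-base consensus that 1 p53 dimer binds, here called the p53 decamer, of which a full response element holds a pair. Promoter windows of 9 of the 10 genes, from 250 bases before to 50 bases after the annotated start, were taken from RefSeq (build GRCm38.p6), 12 windows in all. Pmaip1 had no window here and was not searched. The decamer is its own reverse complement, so a search of 1 strand covers both. An exact decamer was present for 5 of the 9 genes (Trp53, Bax, Aen, Mdm2 and Ccng1), against 9.55% of 27025 genes and 8.36% of 32851 windows. A pair of decamers with the central C and G kept, up to 3 mismatches in total and a spacer of up to 13 bases was present for 5 of the 9 (Trp53, Bax, Bbc3, Aen and Ccng1), against 17.4% of all genes. Exact decamers of Trp53, Bax, Aen and Ccng1 lie within such pairs. These genes were listed because they are known p53 genes, so the counts describe them and test nothing. A match is no evidence of binding, and no match in this window (Plk2, Fas, Sesn2) says nothing about sites elsewhere. The known p53 sites of Mdm2, for example, lie in its first intron. The stretches of 4 measured genes are shown because they let the best match (Ccng1, with 1 mismatch in 20 bases and no spacer) be set beside weaker ones. Capitals mark the decamers, and each stretch is read in the direction of the gene.

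Ccng1, chr11:40755447-40755496, minus strand: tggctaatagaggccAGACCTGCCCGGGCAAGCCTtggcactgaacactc

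Aen, chr7:78895922-78895971, plus strand: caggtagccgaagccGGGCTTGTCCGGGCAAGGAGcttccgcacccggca

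Bbc3, chr7:16309471-16309520, plus strand: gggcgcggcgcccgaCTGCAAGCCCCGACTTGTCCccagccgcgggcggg

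Mdm2, chr10:117710920-117710959, minus strand: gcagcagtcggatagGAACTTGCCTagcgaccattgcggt

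The Aen stretch has 3 mismatches over its 2 decamers, all of them in the second, and lies within both annotated promoter windows of the gene. The Bbc3 stretch also has 3 mismatches. For Mdm2 a single exact decamer was found, starting 186 bases before the annotated start.

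The first question was whether p53 genes differ between dividing and label-retaining crypt cells. They had no common direction, with 2 above 0 and 6 below. Plk2 was 4.31-fold higher in GFPlow, Aen was higher there by at least 2-fold, Pmaip1 was lower by just under 2-fold, and Mdm2, Ccng1, Bbc3 and Fas differed by less than 1.3-fold. Each value is that of a gene's strongest probe set (the 1 with the highest mean, which stands for a gene below). Sesn2 had only a lower bound on its difference. Among the 8 members 2 reached 2-fold in favour of GFPlow, against 8.81% of all 9381 genes measured, and 0 were 2-fold or more below GFPhigh, against 4.3% of all. Their median difference, GFPlow minus GFPhigh, was -0.11, against 0.04 over all measured genes, whose middle 50% ran from -0.31 to 0.42. Their mean was 0.16, of the opposite sign to the median, through Plk2 and Aen. Aen passed the floor only through GFPlow and Sesn2 only through GFPhigh, so the direction of these 2 was fixed by passing, and their differences are lower bounds on the size.

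The second question was whether they differ after doxycycline-induced β-catenin. Again they had no common direction, with 3 above 0 and 5 below. Aen was 2.19-fold higher in Dox plus and Plk2 1.79-fold higher, Fas was 1.97-fold lower, and Mdm2, Ccng1 and Pmaip1 differed by less than 1.35-fold. Among the 8 members 1 reached 2-fold in favour of Dox plus, against 6.93% of all 9537 genes measured, and 0 in favour of Dox minus, against 5.35%. The members' median, Dox plus minus Dox minus, was -0.30, against 0.06 over all measured genes. This sign was not settled: the mean over each gene's measured probe sets gave a median of 0.050, against 0.09 over all genes. Dropping probe sets with the suffix _x_at, _s_at or _a_at, whose probes can match more than 1 transcript, gave 0.17 over 7 members, without Mdm2. The median over all genes was then 0.07.

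**Figure D1:**
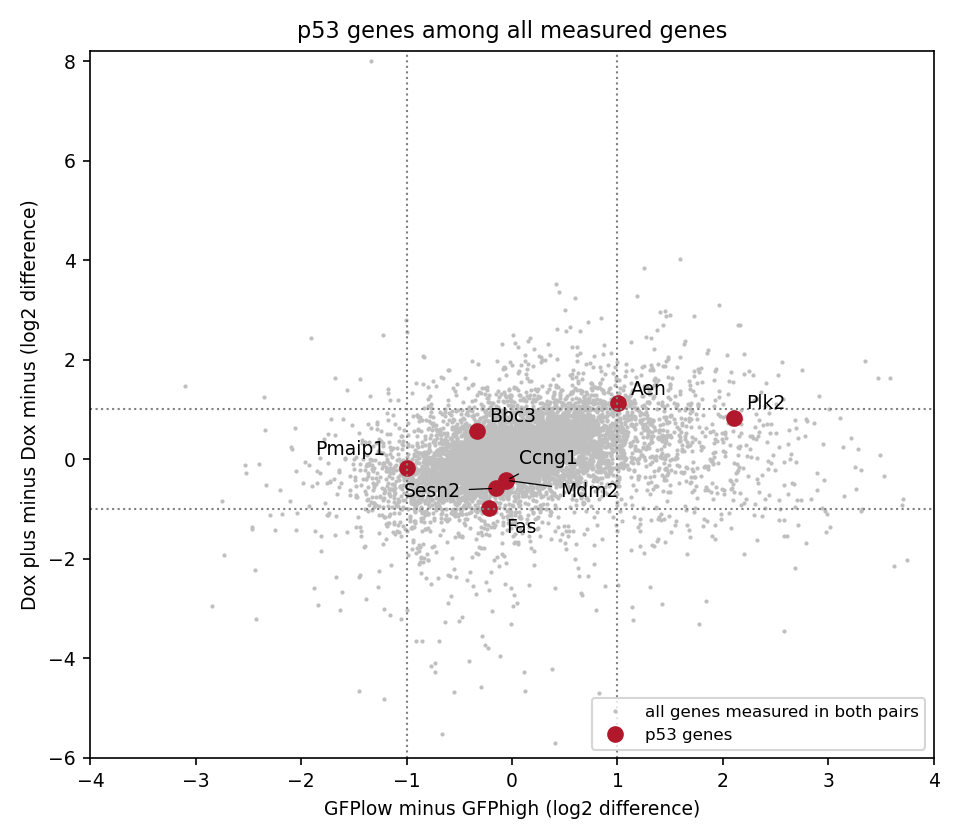
Log2 difference of each gene between GFPlow and GFPhigh (horizontal) and between Dox plus and Dox minus (vertical), with values under the floor of 5 set to it, for all genes measured in both pairs (grey) and the 8 p53 genes (red). Dotted lines mark 2-fold. Plk2 (2.11 and 0.84) and Aen (at least 1.01, and 1.13) lie to the upper right, while Pmaip1 (-0.998) and Fas (-0.98) lie beside a dotted line.

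Mdm2, the ubiquitin ligase that holds p53 in check, was measured by 2 probe sets that differed in direction in the Dox pair. The stronger (1423605_a_at) read 9.67 on GFPhigh, 9.61 on GFPlow, 10.10 on Dox minus and 9.68 on Dox plus. Dox minus was the highest of the 4 and GFPlow the lowest. The other (1427718_a_at) read 8.24, 7.52, 7.57 and 8.08 in the same order. It differed by -0.72 between sorted fractions and by 0.51 between crypts, against -0.06 and -0.42 for the stronger. The direction of Mdm2 was therefore shared by both probe sets in the GFP pair, with sizes far apart, and not shared in the Dox pair. Both end in _a_at, and the remaining probe set (1457929_at) stayed under 2.5 on every array.

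Ccng1, which encodes cyclin G1, a p53 target that recruits a phosphatase to Mdm2, had 3 probe sets above the floor on all arrays. The strongest (1420827_a_at) read 11.05 on GFPhigh, 10.99 on GFPlow, 11.91 on Dox minus and 11.48 on Dox plus, which gave -0.06 and -0.43. The second (1450017_at) read 9.63, 9.93, 10.87 and 11.04 in that order, which gave 0.30 and 0.17. The weakest (1450016_at) read 8.10, 7.48, 10.44 and 10.87, which gave -0.63 and 0.43. No pair had 3 probe sets of 1 direction, and none of the 6 differences reached 2-fold. All 3 probe sets read higher on both Dox arrays than on both sorted arrays.

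The BH3-only genes, whose proteins bind and block the survival proteins of the Bcl2 family, were both lower in GFPlow and differed in sign in the Dox pair. Pmaip1 (Noxa, probe set 1418203_at) read 11.73 on GFPhigh and 10.73 on GFPlow, and 9.63 on Dox minus and 9.46 on Dox plus. Its GFP difference was -0.998, just short of the 2-fold line, and 4.3% of measured genes had a lower difference. The Dox difference was -0.17. Bbc3 (Puma, probe set 1423315_at) read 7.89 on GFPhigh, 7.55 on GFPlow, 6.66 on Dox minus and 7.23 on Dox plus. It was 1.26-fold lower in GFPlow (-0.33) and 1.49-fold higher in Dox plus (0.57), and 29.8% of measured genes differed as much in the Dox pair. Each had 1 probe set, so these values have no second probe set beside them. The lower Pmaip1 value in GFPlow stands beside the lower surface colonocyte markers, with 8 of 8 below 0 and a summed linear level of 212246 on GFPhigh and 134934 on GFPlow. Enteroendocrine markers were lower in GFPlow too, with 7 of 7 measured genes below 0 and a median of -1.22. General epithelial markers were also below 0 in 8 of 8, with a median of -0.21. The part of any of these lists in the result was not tested. In such mixtures of cells, fewer cells of a type and less RNA per cell cannot be told apart.

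Aen, a nuclease gene induced by p53 and linked to apoptosis, was the 1 member at least 2-fold higher in Dox plus. Its strongest probe set (1423957_at) read 4.35 on GFPhigh, 6.01 on GFPlow, 7.61 on Dox minus and 8.74 on Dox plus. Dox plus was the highest and GFPhigh the lowest, under the floor. GFPlow thus exceeded GFPhigh by at least 1.01, and Dox plus exceeded Dox minus by 1.13. A second probe set (1437373_at) read 4.42, 5.29, 5.48 and 5.85 in the same order, giving at least 0.29 and 0.38. Another (1450506_a_at) reached the floor on Dox plus only, where it read 6.72 against 4.45 on Dox minus, a difference of at least 1.72. Both GFP differences and that of the last probe set in the Dox pair passed the floor through 1 array only, so passing fixed their direction. The GFP value rests on the floor: with a floor of 6 it was 0.0050 and with a floor of 4 it was 1.66.

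Plk2, a polo-like kinase gene induced by p53 and by growth signals, showed the largest difference among the members in the GFP pair. Its measured probe set (1427005_at) read 6.67 on GFPhigh, 8.77 on GFPlow, 5.86 on Dox minus and 6.69 on Dox plus. GFPlow was the highest of the 4 arrays and Dox minus the lowest. The difference was 2.11 (4.31-fold) in the GFP pair, at rank 151 of 9381, and 1.93% of genes differed as much in either direction. In the Dox pair it was 0.84 (1.79-fold), and 17.1% of genes differed as much. The other Plk2 probe set (1443780_at) stayed under 1.3 on all arrays. The other polo-like kinase genes did not share both directions with Plk2. The mitotic kinase Plk1 differed by 3.31 in the GFP pair but by -1.04 in the Dox pair, and Plk4, which drives centriole duplication, by at least 2.34 and by -0.67. Plk3, a stress-responsive kinase, differed by -1.29 in the GFP pair and was not measured in the Dox pair. The Plk2 difference between sorted cells stands beside the proliferation markers, whose summed linear level was 8303 on GFPhigh and 22847 on GFPlow. Their part in the result was not tested.

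Fas, the death receptor for Fas ligand, was measured by 1 probe set (1460251_at). It read 7.82 on GFPhigh, 7.60 on GFPlow, 8.12 on Dox minus and 7.14 on Dox plus. Dox minus was the highest and Dox plus the lowest of the 4. The GFP difference was -0.22 and the Dox difference -0.98 (1.97-fold), and 12.9% of genes differed as much. The Dox difference passed 2-fold after quantile normalization (-1.13) and after a loess correction (-1.004). Beside it, interferon-stimulated genes, some of whose inducers also raise Fas, had a median Dox difference of -3.91, and 14 of 14 measured genes were past 2-fold in this direction. Leukocytes also express Fas. Of 6 general leukocyte markers, 3 lay at or above the floor in Dox minus and 4 in Dox plus, with a summed linear level of 483 and 310, and the 4 differed by -1.53 (Laptm5), -0.61 (Ptprc), -0.04 (Coro1a) and at least 0.07 (Cd52, through Dox plus only). Of 5 T cell markers with a probe set 1 reached the floor, Cd8a (-0.25), and the defining marker Cd3e stayed under it on all 4 arrays. The part of interferon-stimulated genes or leukocytes in the Fas value was not tested.

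Sesn2, a stress-induced restraint on the growth kinase complex mTORC1 and a target of both p53 and ATF4, was near the floor in sorted cells. Its stronger probe set (1451599_at) read 5.16 on GFPhigh, 3.91 on GFPlow, 6.83 on Dox minus and 6.24 on Dox plus. The Dox difference was -0.58, with Dox plus the lower. The GFP difference was -0.16 or beyond with the floor of 5 and -1.16 with a floor of 4. The other probe set (1425139_at) read 4.16, 4.83, 5.61 and 5.46, so it was lower in Dox plus by 0.15 and under the floor in both sorted fractions. Its deposited GFP difference of 0.67, under the floor, was opposite in direction to that of the stronger probe set. Among 12 ATF4 and stress response genes (a list that includes Sesn2), 9 were measured in the Dox pair with a median of -0.56. Psat1 (2.38), Phgdh (1.95) and Asns (1.06), enzymes of serine and asparagine synthesis, were past 2-fold higher, and Nupr1 (-2.36) and Atf3 (-1.52) past 2-fold lower. In the GFP pair 8 were measured with a median of 0.32, and Phgdh (2.56, with its 4 probe sets from 0.45 to 3.27) and Asns (1.76) were past 2-fold higher. The 12 genes around sestrins and mTORC1 had medians of -0.06 and 0.21 over 10 measured genes, with Depdc5 (-0.60, its other probe set 0.12) and Nprl3 (-0.27 or beyond) furthest from 0 in the GFP pair and Ddit4 (1.29) and Depdc5 (0.94) in the Dox pair.

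**Figure D2:**
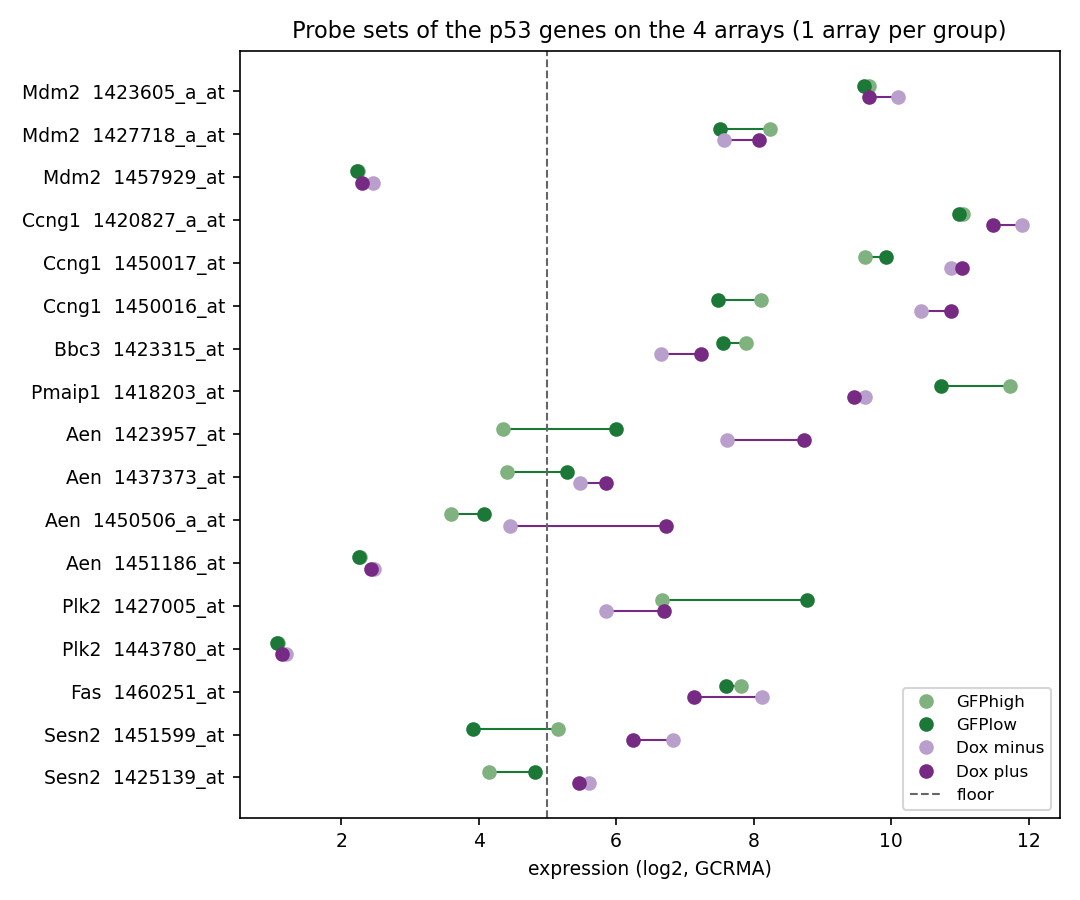
Deposited log2 value of each of the 17 probe sets on the 4 arrays, 1 array per group, with lines joining the arrays of a pair and a dashed line at the floor of 5. The GFP line is longest for Plk2 (6.67 to 8.77). Next are the strongest probe sets of Aen (4.35 to 6.01) and Sesn2 (5.16 to 3.91), which cross the floor, and then Pmaip1 (11.73 to 10.73). The measured probe sets of Ccng1 differ in direction in both pairs, and those of Mdm2 in the Dox pair only.

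Levels also differed between the pairs. Both Dox arrays read higher than both sorted arrays for 4 of the 8 genes (Mdm2, Ccng1, Aen and Sesn2), as for 28.1% of all 9895 genes measured on any array. For Mdm2 the margin was slight (9.682 on Dox plus, 9.674 on GFPhigh), and the pairs overlapped at its other measured probe set. Both Dox arrays read lower for 2 (Bbc3 and Pmaip1), as for 39.3% of all genes, and for Plk2 and Fas the pairs overlapped. Mice, sorting and possibly the processing run differ between the pairs and cannot be told apart, so levels across pairs are given in order only and the sizes of differences only within pairs.

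Genes with the most similar differences were sought among 8577 others at or above the floor on all 4 arrays, by the Euclidean distance over the 2 within-pair log2 differences. Mdm2 and Ccng1 were each other's nearest gene, 0.01 apart, at their strongest probe sets. This is a crowded region, with 495 genes within 0.25 of Mdm2, and their other probe sets lie elsewhere. Plk2 had 13 genes within 0.25. Its nearest were the zinc finger gene Zkscan17 (distance 0.07), the replication helicase gene Mcm6 (0.07) and the sialyltransferase gene St6galnac2 (0.08). The nearest to Pmaip1 were Tfeb, Ildr1 and the water channel gene Aqp8 (0.02, 0.02 and 0.03). For Fas they were Cmtr1, Dnase1l1 and Glo1 (0.06, 0.06 and 0.07), and for Bbc3 Clpb, Zfp768 and Tbpl1 (0.02, 0.02 and 0.03). A likeness over 2 differences is a description only.

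The wider pathway was described through lists of genes. Of 18 members of the p53 family and regulators of p53, 15 were measured in each pair. In the GFP pair 2 were past 2-fold higher, the damage kinase genes Chek2 (1.55) and Atm (1.13), 0 past 2-fold lower, and the median was 0.13. Between crypts Atr (1.11, its other probe set 0.31) was past 2-fold higher, Chek1 followed at 0.99, and the median was 0.24. Mdm4, the partner of Mdm2, differed by 0.13 and 0.36, and the phosphatase Ppm1d, a p53 target that dampens the response, by -0.34 and -0.27.

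Other p53 targets in arrest, repair and metabolism numbered 30, of which 20 were measured in the GFP pair with a median of 0.02. Ckap2, a gene of the mitotic spindle (1.66), and the repair polymerase Polk (1.07, its other probe set -0.63) were past 2-fold higher in GFPlow and Plk3 lower. In the Dox pair 19 were measured with a median of -0.07, 0 were past 2-fold higher, and Ccng2, a cyclin linked to cell cycle exit (-1.44), and Ckap2 (-1.32) were past 2-fold lower. Cdkn1a (p21), the main arrest target of p53, differed by -0.75 and -0.27, and Gadd45a by -0.66 and -0.53. The list as a whole did not share this direction. In the GFP pair 11 of its genes lay above 0 and 9 below, and in the Dox pair 8 above and 11 below.

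Genes of the apoptosis machinery were scattered too. Of 15 Bcl2 family genes 11 were measured in the GFP pair, with a median of -0.33. The survival gene Bcl2 read 5.79 on GFPhigh and 8.92 on GFPlow (3.13), although its second measured probe set gave 0.45, and the mitophagy gene Bnip3 differed by -1.18. Between crypts 12 were measured with a median of 0.15. Bid, which links death receptors to mitochondria (1.52, its other probe set 0.31), and Bnip3 (1.34) were past 2-fold higher. The survival gene Mcl1 differed by -0.81 and -0.53. Caspase and apoptosome genes were measured for 13 of 15, with medians of -0.12 and 0.00. The inhibitors of apoptosis Birc5 (survivin, also a mitotic gene) and Birc3 differed by 2.07 and -1.07 in the GFP pair. After doxycycline 0 of the 13 were past 2-fold, and the furthest from 0 were Casp6 (0.88) and Apaf1 (-0.68, its other probe set -0.09), the scaffold of the apoptosome. Of 11 death receptor genes 8 were measured in each pair, with medians of 0.11 and -0.07. The death ligand gene Tnfsf10 (Trail), which interferons also induce, read 10.38 on Dox minus and 7.48 on Dox plus (-2.89, its other probe set -1.58), and its GFP difference was 0.04 (its other probe set 0.86). Cflar, an inhibitor of caspase 8, differed by -0.91 (with 1 of its 3 probe sets at 0.45) and -0.87, and Faf1 by 0.47 (its other probe set 0.88) in the GFP pair.

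**Figure D3:**
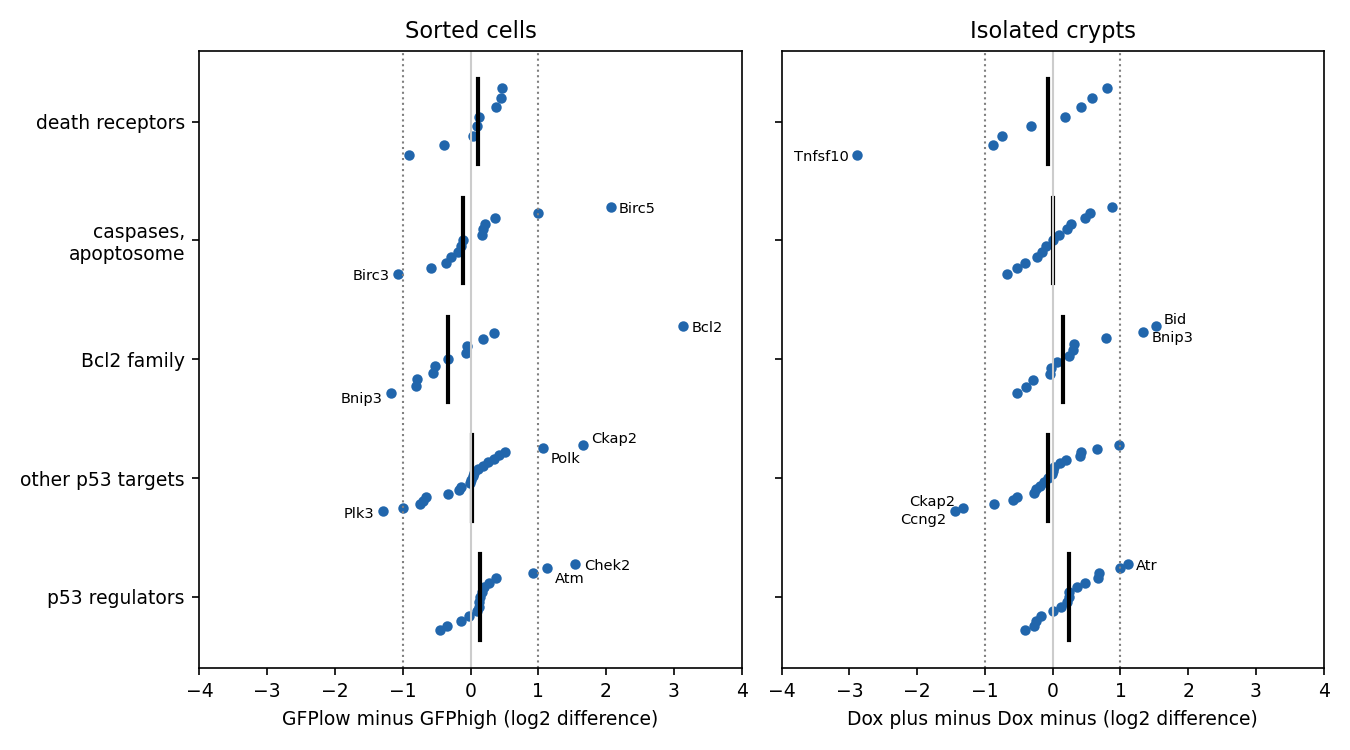
Log2 differences of the measured genes of 5 lists in sorted cells (GFPlow minus GFPhigh, left) and isolated crypts (Dox plus minus Dox minus, right). Each point is a gene, black bars are list medians, dotted lines mark 2-fold and genes past them are named. The medians lie between -0.33 and 0.24, with Bcl2 (3.13) and Tnfsf10 (-2.89) furthest out.

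Immediate-early genes, which crypt isolation and sorting can raise, had medians of -0.12 over 12 genes and -0.28 over 11. In the GFP pair 0 were past 2-fold, with Ier3 (0.50) and Klf4 (-0.45) furthest from 0, and in the Dox pair Ier3 (3.01) was past 2-fold higher and Atf3 lower. In sorted cells the median of 14 interferon-stimulated genes was -0.28, and the 2 past 2-fold, both lower in GFPlow, were Mx1 (-2.74 or beyond) and Irf7 (-1.27). Markers of plasma cells and fibroblasts in the Dox pair were measured through 1 gene each, Jchain (-2.53 or beyond) and Vim (-1.78), and myeloid markers through 2, with a median of 0.31. Among sorted cells T cell markers had 0 measured genes, and the leukocyte, B and plasma cell, and fibroblast lists 1 each, with values of 0.53, -0.14 and 0.18, and myeloid markers 2 with a median of 0.02.

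**Figure D4:**
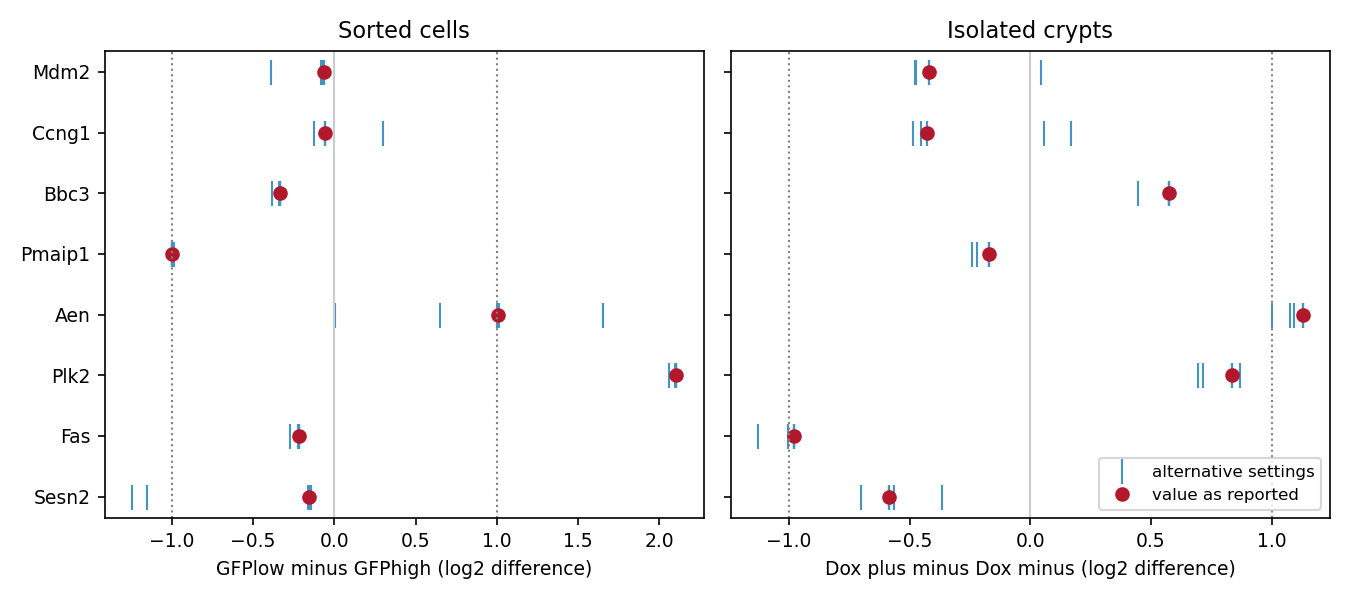
Log2 difference of the 8 p53 genes as reported (red) and under the alternative settings (blue ticks) in sorted cells (left) and isolated crypts (right), with dotted lines at 2-fold. Plk2 stays between 2.06 and 2.11 in sorted cells, while Aen spans 0.0050 to 1.66 and Sesn2 -1.25 to -0.14 there.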

How the data were processed

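Values deposited by the authors are log2 expression, 1 for each probe set on each array. They were produced by GCRMA, per the submitters' processing notes (version not given in the sources used here), from biotin-labelled cRNA of Trizol-extracted total RNA per the labels' protocols. GCRMA models background from probe sequence, so low values are compressed. The log2 scale was read from the values (0.47 to 16.27). In the platform annotation 34958 probe sets had 1 symbol, 932 had several and 9211 had none. A gene (18194 in all) was read from its strongest probe set, by mean over the 4 arrays. It counted as measured in a pair when 1 array reached 5, lower values were set to 5, and differences were taken within a pair only. Between 16945 and 17462 probe sets reached the floor on an array, and the arrays of a pair correlated at r = 0.985 across probe sets in both pairs.

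At least 2-fold means a log2 difference of 1 or more. All 8 members with probe sets are named, and of each list the genes past 2-fold and the 2 furthest from 0, except that interferon-stimulated genes in the Dox pair and cell type markers are given mostly as counts and medians. Other genes (Mdm4, Ppm1d, Cdkn1a, Gadd45a, Mcl1, Chek1) were named after their values were seen. The members and lists were chosen with earlier results of these data known, and some lists share genes. The difference step was tested on simulated data, with differences planted in genes that had 1 probe set and values well above the floor. Genes near the floor or with several probe sets were not covered. Python 3.11.15, pandas 2.3.3 and statsmodels 0.14.6 (loess) were used.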

Additional observations from a re-analysis of the deposited data

How the results depend on the processing

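The alternatives, 7 in all, included floors of 4, 6 and none, quantile normalization within pairs, and loess (span 0.4). They also included averaging the measured probe sets of a gene, and dropping probe sets with the suffix _x_at, _s_at or _a_at. Members at least 2-fold higher in GFPlow numbered 1 with a floor of 6 and 1 with averaging, in place of 2, since Aen came to 0.0050 and 0.65. With a floor of 6 only 7 members were measured in this pair. All measured genes 2-fold higher in GFPlow numbered 701 of 8848 with a floor of 6 and 810 of 9393 with averaging. Members at least 2-fold lower in GFPlow numbered 1 with a floor of 4 and 1 with no floor, in place of 0, through Sesn2 (-1.16 and -1.25). The other Sesn2 probe set (1425139_at) went the other way, with a deposited GFP difference of 0.67. With loess the number was 1, through Pmaip1 (-1.002). All measured genes 2-fold lower in GFPlow numbered 460 of 10054 with a floor of 4, 525 of 18194 with no floor and 405 of 9385 with loess. Members at least 2-fold lower in Dox plus numbered 1 with quantile normalization and 1 with loess, through Fas. All measured genes 2-fold lower there numbered 598 of 9535 with quantile normalization and 539 of 9537 with loess. The members' median in the Dox pair changed sign, to 0.050 with averaging and 0.17 with these suffixes dropped. The medians over all genes were 0.09 and 0.07 under these 2 settings. In the Dox pair Ccng1 came to 0.056 and 0.17 under these 2 settings and Mdm2 to 0.044 with averaging. In the GFP pair Ccng1 came to 0.30 with these suffixes dropped. Of 109 single-gene values under alternatives, 99 kept their side of the 2-fold line and moved by less than 1.5-fold, some with a changed sign. Many could not move. Floors, averaging and dropping suffixes leave Bbc3, Pmaip1 and Fas as they were, each with 1 probe set above every floor. The count is therefore no measure of how firm the values are. Plk2 in the GFP pair (2.06 to 2.11) and Aen in the Dox pair (1.002 to 1.13) were at least 2-fold higher under all 7. No setting read Aen from its second probe set (1437373_at) alone, which gave 0.38 in the Dox pair. Averaging gave 1.08 with the help of 1450506_a_at, which passed the floor through Dox plus only. Mdm2 has no value with these suffixes dropped. Values close to the floor, as for Aen and Sesn2 in sorted cells, are the least certain.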

Other observations

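The probe sets of Mdm2 and Ccng1 form a pattern of values chosen after they were seen. The strongest probe sets of both genes gave nearly the same differences (-0.06 and -0.42 for Mdm2, -0.06 and -0.43 for Ccng1, GFP pair first). A weaker probe set of each also gave values close to those of the other gene, but with the Dox sign turned (-0.72 and 0.51 for Mdm2, -0.63 and 0.43 for Ccng1). The remaining measured probe set of Ccng1 (0.30 and 0.17) was not close to either probe set of Mdm2. Which transcripts each probe set reads was not tested.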
